A study of Mus musculus with 6 samples.

Results

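The genes described here form the mGluR6 cascade of ON bipolar cells, the interneurons of the retina that depolarise when light comes on. All 10 genes were chosen by symbol (Grm6, Trpm1, Gpr179, Nyx, Rgs7, Rgs11, Gnao1, Gnb5, Pcp2 and Prkca), all 10 are among the 22173 genes of the files, and all 10 were among the 12112 genes tested. RNA of whole mouse retina was sequenced at postnatal day 17 in 6 libraries. The 3 libraries of oxygen-induced retinopathy (OIR) came from wild-type C57BL/6J pups that breathed 75% oxygen between postnatal days 7 and 12 and room air from then to day 17. The 3 Control libraries came from wild-type C57BL/6J pups that stayed in room air over postnatal days 7 to 17. In this model, vessels are lost while the pups breathe high oxygen, and back in room air the underperfused retina becomes hypoxic and sprouts abnormal vessels. No label ties a library to an animal or a pool of animals; p-values therefore measure only how far these libraries spread, and that spread may be technical.

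In darkness, photoreceptors release glutamate onto ON bipolar cells, where the receptor mGluR6 acts through the G protein Go to hold the cation channel TRPM1 shut. In light, glutamate falls, complexes of an RGS protein with the G protein subunit Gβ5 turn Go off, and TRPM1 opens. In humans, loss of GRM6, TRPM1, GPR179 or NYX causes complete congenital stationary night blindness, in which the ON response is missing. Several of these genes are also used outside ON bipolar cells: Gnao1, Rgs7 and Gnb5 are active in many neurons, and Gnb5 also serves RGS9 in photoreceptors.

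The libraries held 35615501 to 38025623 reads, recovered from the values as described under processing. Reads of 21 lens genes made up 0.555% of OIR 2 and 6.38% of Control 3, against 0.0155% to 0.0588% of the other libraries, which lowers every other value in Control 3, since the files give RPKM, reads scaled to gene length and to the library total. Values with the lens reads removed from the library totals, or without Control 3 and OIR 2, are therefore given below for cascade and partner genes whose call they change, and as counts for the synapse and bipolar lists. The tissue label was checked against rod genes, whose 9 listed members summed to between 14405 and 15016 RPKM in OIR and between 12019 and 14583 RPKM in Control. Other cell types differed too: 6 of 7 endothelial and 6 of 6 tested microglial markers were higher in OIR, against 11.6% of all tested genes. Of 8 markers of Müller glia 3 were higher and 5 lower, against 7.22% of all tested genes lower. In RNA of a whole tissue, fewer cells of a type and less RNA per cell cannot be told apart.

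The log2 fold changes of the receptor gene Grm6 and the scaffold gene Gpr179 were -0.03 and 0.03 and did not pass the test. Rgs11 and Gnb5 were higher and Rgs7 was lower in OIR, and the call of Gnb5 ended in some of the other fits. The other 7 genes did not pass the test. These 3 of 10 genes past the threshold stand against 18.8% of all 12112 tested genes, with 11.6% higher and 7.22% lower. Higher genes made up 61.7% of all calls, 51.5% when lens reads were removed from the library totals and 51.2% with median-of-ratios scaling. The same 3 genes were those whose groups did not overlap, which held for 38.7% of all tested genes. The test was limma on log2(RPKM + 1), with a threshold of 0.05 on the Benjamini-Hochberg adjusted p over all tested genes, and each adjusted p below is from such a limma fit.

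**Figure D1:**
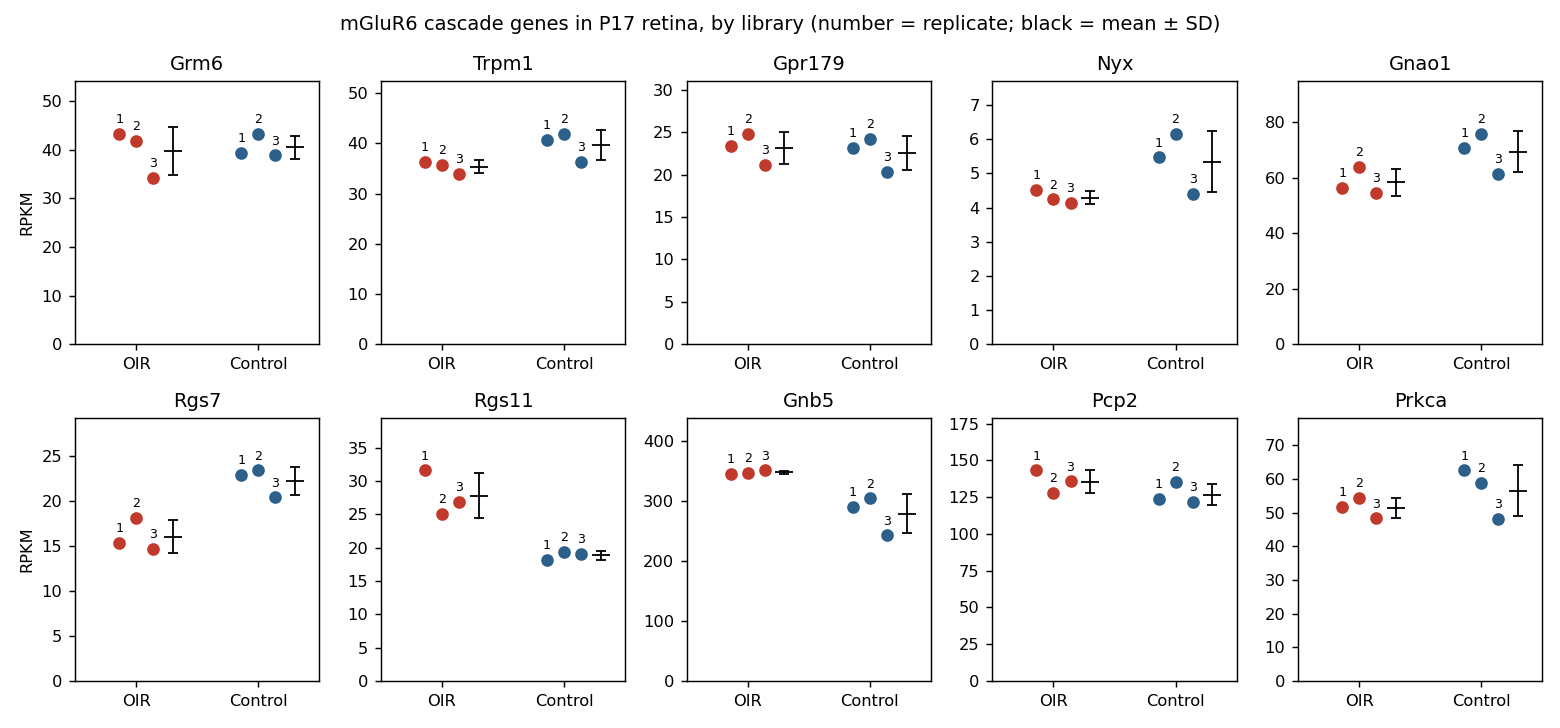
RPKM of the 10 cascade genes (vertical axes, from 0) in each OIR library (red) and Control library (blue), with the replicate number above each point and the mean ± SD in black. Rgs7 lies lower and Rgs11 and Gnb5 lie higher in every OIR library than in every Control library, and the groups of the other 7 genes overlap.

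The receptor comes first. Grm6 encodes mGluR6, a glutamate receptor that in the retina is found on ON bipolar cells. It was at 43.3, 41.8 and 34.2 RPKM in OIR 1 to OIR 3, against 39.4, 43.3 and 38.9 RPKM in Control 1 to Control 3. The lowest value was that of OIR 3, and the other OIR values lay within the Control range or at its upper edge. The means were 39.8 ± 4.88 RPKM in OIR and 40.5 ± 2.42 RPKM in Control (SD, n = 3 each), with a log2 fold change of -0.03, a 95% interval from -0.23 to 0.17 and an adjusted p of 0.834.

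Trpm1 encodes the channel at the end of the cascade. Its levels were 36.3, 35.8 and 33.9 RPKM in the OIR libraries and 40.7, 41.9 and 36.3 RPKM in the Control libraries. Control 3 and OIR 1 were level with each other, and the other Control values lay above all OIR values. On the log2 scale the difference was -0.16 (SE 0.0704, 95% interval from -0.31 to -0.00382, adjusted p = 0.138). It passed, at 0.0398, with lens reads removed from the library totals and, at 0.0164, without Control 3 and OIR 2, with log2 fold changes of -0.19 and -0.23. Pigment cells also use Trpm1. A list of 9 genes of the pigment epithelium and pigment cells was added after the values were seen. It summed to between 42.4 and 48.6 RPKM in OIR and between 47.3 and 63.0 RPKM in Control. Ttr alone gave 30.7 to 34.8 RPKM of the sum in OIR and 35.1 to 39.8 RPKM in Control. None of the listed genes was at 0 in all libraries, 5 were tested and these 5 did not pass. The part of pigment cells in the Trpm1 values was not tested.

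Gpr179 encodes an orphan receptor that holds the RGS proteins at the dendritic tips. It was at 23.4, 24.8 and 21.1 RPKM in OIR and 23.1, 24.2 and 20.4 RPKM in Control, values that overlap throughout. Its log2 fold change was 0.03, with a 95% interval from -0.15 to 0.22 and an adjusted p of 0.808. Its sign was negative without Control 3, without OIR 2 and without both, at -0.04, -0.02 and -0.09.

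Nyx encodes nyctalopin, a leucine-rich repeat protein that TRPM1 needs to reach the dendritic tips. It was the lowest of the 10 genes, at 4.51, 4.24 and 4.13 RPKM in OIR and 5.47, 6.16 and 4.40 RPKM in Control, on 903 to 1329 reads per library. Control 3 fell among the OIR values and the other Controls lay above them. On the log2 scale the difference was -0.25 (SE 0.103, adjusted p = 0.112). It was -0.36 without Control 3 and -0.36 without Control 3 and OIR 2, with adjusted p of 0.0261 and 0.0151.

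Gnao1 encodes the alpha subunit of Go, the G protein of mGluR6. Its levels were 56.4, 63.9 and 54.6 RPKM in OIR and 70.8, 75.8 and 61.4 RPKM in Control. OIR 2 lay above Control 3, and the other OIR values lay below all Controls. On the log2 scale the difference was -0.24 (SE 0.0884, adjusted p = 0.0772). With lens reads removed it was -0.27 and passed, at 0.0397. It was -0.33 without Control 3, -0.31 without OIR 2 and -0.39 without both, with adjusted p of 0.0294, 0.0210 and 0.00121.

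The RGS subunits moved in opposite directions. RGS7 and RGS11 both speed up the switching off of Go in ON bipolar cells, and each is paired with Gβ5. Rgs11 was at 31.6, 25.03 and 26.8 RPKM in OIR, against 18.2, 19.4 and 19.0 RPKM in Control. Every OIR library lay above every Control library, with OIR 1 the highest. The mean was 27.8 ± 3.41 RPKM in OIR and 18.9 ± 0.634 RPKM in Control (SD, n = 3 each), a ratio of 1.48, with a log2 fold change of 0.53 (SE 0.0850, adjusted p = 0.00337).

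Rgs7 was at 15.3, 18.1 and 14.7 RPKM in OIR, against 22.9, 23.4 and 20.4 RPKM in Control. Every OIR library lay below every Control library, with OIR 2 the nearest to them. The mean was 16.0 ± 1.81 RPKM in OIR and 22.2 ± 1.60 RPKM in Control (SD, n = 3 each), a ratio of 0.722, with a log2 fold change of -0.45 (SE 0.0875, adjusted p = 0.00785). Of markers of other neurons, 6 of 8 amacrine and 3 of 9 ganglion cell markers were lower in OIR, against 7.22% of all tested genes. The other 2 amacrine and 6 ganglion cell markers did not pass. The amacrine list summed to between 471 and 649 RPKM in OIR and between 706 and 765 RPKM in Control. Calb2 alone gave 245 to 365 RPKM of the sum in OIR and 389 to 413 RPKM in Control. The part of amacrine cells in the Rgs7 and Gnao1 values was not tested.

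Gnb5, the gene of the Gβ5 subunit without which RGS7 and RGS11 are unstable, was the most abundant of the 10 genes per length of gene. Its levels were 344, 347 and 351 RPKM in OIR and 289.8, 304 and 242 RPKM in Control. The OIR libraries lay close together and above all Controls, and Control 3 was the lowest. The means were 347 ± 3.30 RPKM in OIR and 279 ± 32.4 RPKM in Control (SD, n = 3 each), a ratio of 1.25, with a log2 fold change of 0.32 (SE 0.0867, adjusted p = 0.0280). The call ended without OIR 1, at a log2 fold change of 0.33 (adjusted p = 0.0954), without OIR 3, at 0.32 (adjusted p = 0.0850), and without Control 1, at 0.35 (adjusted p = 0.0668). Without Control 3 it held, at a log2 fold change of 0.22. Photoreceptors also carry Gnb5. The cone list summed to between 833 and 925 RPKM in OIR and between 724 and 774 RPKM in Control. Of 9 rod genes 2 were higher, against 11.6% of all tested genes. The part of photoreceptors in the Gnb5 values was not tested.

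The ratio of Rgs11 to Rgs7 within a library does not depend on how the libraries are scaled. It was 2.07, 1.38 and 1.83 in OIR, against 0.795, 0.829 and 0.934 in Control. All OIR libraries held more Rgs11 than Rgs7 per length, and all Control libraries held less. Rgs11 made up 63.4% ± 4.80 of the sum of the pair in OIR and 46.0% ± 2.09 in Control (SD, n = 3 each), while that sum was 43.8 ± 2.77 RPKM in OIR and 41.1 ± 1.67 RPKM in Control. The ratio was 2.04 times as high in OIR, a log2 difference of 1.03, which ran from 0.90 to 1.19 with single libraries left out. The two-sided exact permutation test gave 0.1, the smallest p that 3 against 3 libraries allow, and 0.214 adjusted over the 15 ratios computed. These ratios were chosen after the values were seen. The part of other cells that use Rgs7 or Gnb5 in these ratios of whole retina was not tested.

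**Figure D2:**
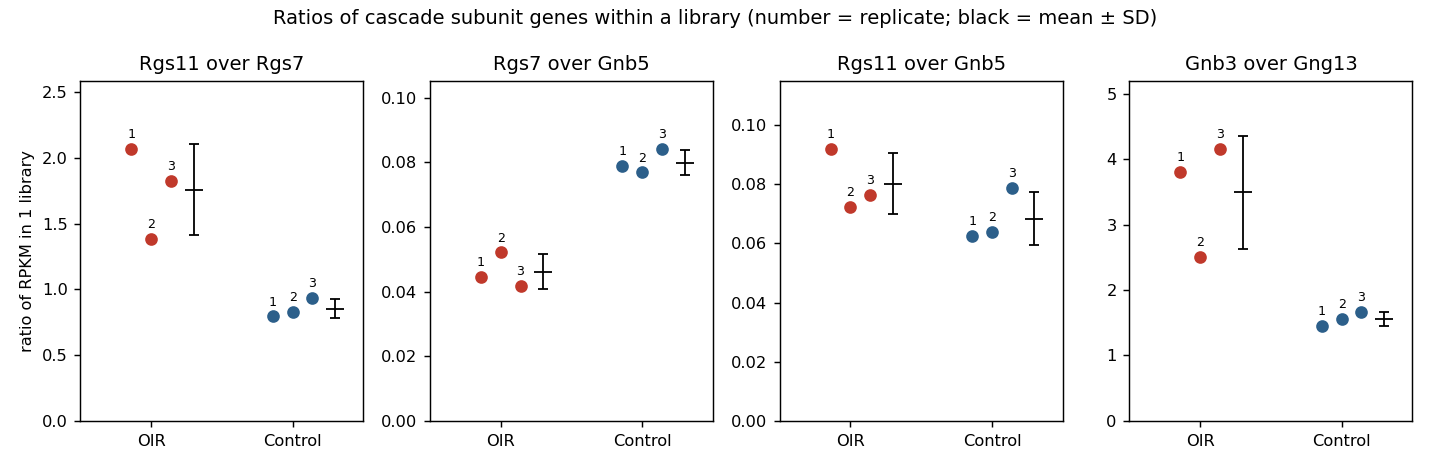
Ratio of the RPKM of a pair of cascade subunit genes within each library (vertical axes, from 0), with OIR in red, Control in blue, the replicate number above each point and the mean ± SD in black. Rgs11 over Rgs7 lies between 1.38 and 2.07 in OIR and between 0.795 and 0.934 in Control, Rgs7 over Gnb5 is lower and Gnb3 over Gng13 is higher in all OIR libraries, and Rgs11 over Gnb5 overlaps.

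Within a library, Rgs7 was lower against Gnb5 in every OIR library. The ratio of Rgs7 to Gnb5 was 0.0462 ± 0.00535 in OIR and 0.0800 ± 0.00376 in Control, with no overlap and an exact permutation p of 0.1 (two-sided, n = 3 each, 0.214 adjusted). The ratio of Rgs11 to Gnb5 was 0.0802 ± 0.0104 in OIR and 0.0683 ± 0.00893 in Control and overlapped, with an exact permutation p of 0.3 (n = 3 each). Relative to Grm6, Rgs11 was 1.50 times, Gnb5 1.28 times and Rgs7 0.736 times the Control ratio, each without overlap and each at an exact permutation p of 0.1. Trpm1, Gpr179, Nyx, Gnao1, Pcp2 and Prkca relative to Grm6 overlapped between the groups.

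The last 2 genes mark rod bipolar cells, the ON bipolar cells that carry rod signals. Pcp2 encodes a GoLoco protein that binds the alpha subunit of Go. Its levels were 143, 128 and 136 RPKM in OIR and 124, 135 and 122 RPKM in Control, with overlap, a log2 fold change of 0.10, a 95% interval from -0.06 to 0.25 and an adjusted p of 0.373. Prkca encodes protein kinase C alpha, the standard antibody marker of rod bipolar cells. It was at 51.8, 54.3 and 48.3 RPKM in OIR and 62.6, 58.9 and 48.2 RPKM in Control. OIR 3 and Control 3 were nearly level, and the other Controls lay above all OIR values. The log2 fold change was -0.13, with a 95% interval from -0.34 to 0.08 and an adjusted p of 0.370. Without Control 3 it was -0.24 and passed, at an adjusted p of 0.0420, and without Control 3 and OIR 2 it was -0.28, at 0.00825.

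**Figure D3:**
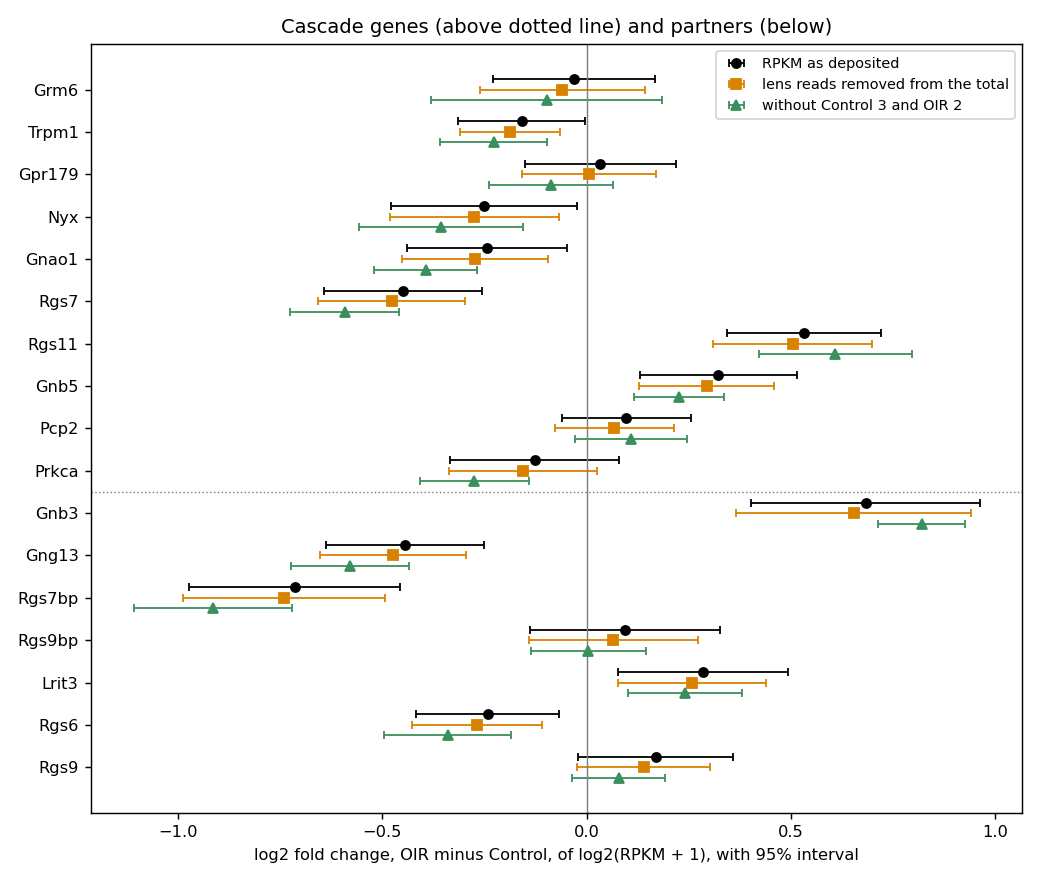
Log2 fold change, OIR minus Control, on the log2(RPKM + 1) scale with its 95% limma interval (horizontal axis), for the 10 cascade genes above the dotted line and 7 partner genes below it. Black circles are the deposited RPKM, orange squares have lens reads removed from the library totals, and green triangles leave out Control 3 and OIR 2; Rgs7, Rgs11 and Gnb5 keep their sign and stay clear of 0 in all 3, and Trpm1, Nyx, Gnao1 and Prkca move further below 0 without the 2 lens-rich libraries.

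Removal of the lens reads raised the number of cascade genes past the threshold to 5 of 10, against 21.4% of all tested genes, through Trpm1 and Gnao1. Without Control 3 and OIR 2 it was 7 of 10, against 33.3% of all tested genes, through Nyx and Prkca as well. The 4 added genes were all lower in OIR. Lens reads made up 0.555% of OIR 2 and 6.38% of Control 3, so leaving out OIR 2 is more than a lens correction. Median-of-ratios scaling also gave 5 of 10 (21.5% of all tested genes), limma-voom on recovered reads 6 of 10 (23.4%), the replicate number as a block 4 of 10 (16.8%) and no filter on low values 2 of 10 (9.68% of 17953 genes). Grm6, Gpr179 and Pcp2 did not pass in either fit, at adjusted p from 0.197 to 0.960.

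The order of levels differed in one stretch. In OIR the means ran Gnb5, Pcp2, Gnao1, Prkca, Grm6, Trpm1, Rgs11, Gpr179, Rgs7 and Nyx, and only Grm6 and Trpm1 overlapped as neighbours. In Control the order was Gnb5, Pcp2, Gnao1, Prkca, Grm6, Trpm1, Gpr179, Rgs7, Rgs11 and Nyx. There Gnao1 overlapped with Prkca, Grm6 with Trpm1 and Gpr179 with Rgs7. Rgs11 lay below Gpr179 and Rgs7 in Control and above both in OIR.

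The upstream sequence is shown for the called genes Rgs7 and Gnb5 and for Grm6 and Trpm1, the receptor and the channel, which did not pass. Each is the 250 bases before the annotated start in RefSeq, build GRCm38.p6, written 5′ to 3′ along the gene. The table of these sequences held 9 of the 10 genes, and Rgs11 is named only. Capitals mark GGATTA, the core bound by the bipolar and photoreceptor factors OTX2 and CRX, and ACGTG, the core bound by hypoxia-inducible factors, on either strand. The windows are Rgs7 at chr1:175492546-175492795 (minus strand), Gnb5 at chr9:75306038-75306287 (plus), Grm6 at chr11:50850435-50850684 (plus) and the upstream start of Trpm1 at chr7:64153585-64153834 (plus).
Rgs7: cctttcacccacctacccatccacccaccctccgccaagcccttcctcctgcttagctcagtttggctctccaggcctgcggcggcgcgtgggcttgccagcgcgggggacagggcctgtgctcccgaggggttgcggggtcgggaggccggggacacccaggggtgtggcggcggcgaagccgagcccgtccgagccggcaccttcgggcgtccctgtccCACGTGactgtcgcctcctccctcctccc
Gnb5: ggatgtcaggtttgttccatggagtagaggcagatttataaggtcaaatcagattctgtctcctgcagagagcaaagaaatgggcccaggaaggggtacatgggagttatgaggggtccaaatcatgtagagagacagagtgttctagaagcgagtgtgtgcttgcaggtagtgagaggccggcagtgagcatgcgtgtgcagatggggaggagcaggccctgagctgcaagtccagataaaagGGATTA
Grm6: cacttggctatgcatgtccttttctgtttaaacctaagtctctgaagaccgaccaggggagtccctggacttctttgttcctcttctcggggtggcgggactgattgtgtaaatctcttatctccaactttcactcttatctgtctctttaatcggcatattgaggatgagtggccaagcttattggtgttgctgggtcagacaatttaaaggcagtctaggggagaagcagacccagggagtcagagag
Trpm1: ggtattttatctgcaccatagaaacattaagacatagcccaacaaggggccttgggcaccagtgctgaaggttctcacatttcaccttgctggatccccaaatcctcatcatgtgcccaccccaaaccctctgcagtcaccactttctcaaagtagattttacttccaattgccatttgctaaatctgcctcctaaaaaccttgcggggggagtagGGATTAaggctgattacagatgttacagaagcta
Rgs7 held CACGTG, which is ACGTG on both strands, 29 bases before its start, in a window of 72.4% G and C. Gnb5 held GGATTA as the last 6 bases before its start, and Trpm1 held it 34 bases before this start. The Grm6 window held neither. Of 13 windows of the 9 genes, 2 held GGATTA, against 6.25% of all 32851 windows in the table, and 2 held ACGTG, against 16.6%. The second ACGTG window is the other annotated start of Trpm1. A match describes these letters only.

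Of 7 partner genes of the cascade, 1 was higher, 2 were lower and 4 did not pass. Of all tested genes, 11.6% were higher and 7.22% lower. With lens reads removed 1 partner gene was higher and 3 were lower, against 1338 and 1259 of all 12112 tested genes. Without Control 3 and OIR 2 it was 2 and 3, against 2094 and 1943 of all tested genes. Gnb3, the beta subunit that works with Go in ON bipolar cells and with transducin in cones, was at 345, 244 and 340 RPKM in OIR, against 192, 195 and 183 RPKM in Control. All OIR values lay above all Controls, with OIR 2 the nearest to them. On the log2 scale the difference was 0.68 (SE 0.124, adjusted p = 0.00804). Gng13, the gamma subunit paired with it in ON bipolar cells, was at 90.6, 97.0 and 81.8 RPKM in OIR, against 133, 125 and 110 RPKM in Control. All OIR values lay below all Controls, at a log2 fold change of -0.45 and an adjusted p of 0.00807. Within a library, Gnb3 over Gng13 was 3.49 ± 0.867 in OIR and 1.56 ± 0.111 in Control, with an exact permutation p of 0.1 (two-sided, n = 3 each).

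The anchors of the RGS complexes differed from each other in value. Rgs7bp, which tethers R7 family complexes to the membrane, fell to 4.68, 6.26 and 5.23 RPKM in OIR, against 10.8, 9.69 and 8.02 RPKM in Control. Its log2 fold change was -0.71, with an adjusted p of 0.00399. Rgs9bp, which anchors RGS9 in photoreceptors and RGS11 in ON bipolar cells, averaged 102 ± 5.08 RPKM in OIR and 96.2 ± 15.1 RPKM in Control, at an adjusted p of 0.574. Lrit3, whose protein is needed to bring nyctalopin and TRPM1 to the synapse, averaged 34.1 ± 2.66 RPKM in OIR and 27.9 ± 3.47 RPKM in Control. Its log2 fold change was 0.29, with an adjusted p of 0.0570, and it passed without Control 2, without OIR 2 and without Control 3 and OIR 2, at 0.0460, 0.0226 and 0.0175. The other R7 genes, Rgs6 and Rgs9, did not pass: Rgs6 was at -0.24 (adjusted p = 0.0548) and Rgs9 at 0.17 (adjusted p = 0.195). Rgs6 passed with lens reads removed, at -0.27 (adjusted p = 0.0294), and without Control 3 and OIR 2, at -0.34 (adjusted p = 0.00630).

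The listed markers of bipolar cells as a class were lower or did not pass. Of 8 pan bipolar markers, 6 were lower in OIR and 2 did not pass, against 7.22% of all tested genes lower, and the median log2 fold change was -0.36, against 0.03 over all tested genes and -0.08 over the 10 cascade genes. Pcp4 averaged 229.6 ± 29.2 RPKM in OIR and 353 ± 7.12 RPKM in Control. The calcium-binding protein genes Scgn and Cabp5 averaged 29.2 ± 3.72 and 30.0 ± 1.80 RPKM in OIR, against 44.8 ± 5.04 and 42.3 ± 5.35 RPKM in Control. Neurod4 averaged 53.1 ± 2.47 RPKM in OIR and 70.3 ± 6.74 RPKM in Control. The adjusted p of these 4 genes ran from 0.00166 to 0.00841. Trnp1 was lower by a log2 fold change of -0.32. Its call ended without OIR 1, OIR 3, Control 1 or Control 2, at adjusted p from 0.0738 to 0.0910. Otx2 and Lhx4, the 2 that did not pass, were near level, at log2 fold changes of -0.0027 and 0.031 (adjusted p = 0.983 and 0.784).

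Of 10 tested rod bipolar and ON cone bipolar markers, 3 were lower and 7 did not pass, against 7.22% of all tested genes lower. Their median log2 fold change was -0.24. Isl1, a transcription factor gene of ON bipolar, amacrine and ganglion cells, averaged 36.0 ± 3.00 RPKM in OIR and 43.8 ± 1.49 RPKM in Control. Tpbg averaged 4.57 ± 0.0899 RPKM in OIR and 6.05 ± 0.983 RPKM in Control. The calls of Isl1 and Tpbg ended without Control 1, Control 2, OIR 1 or OIR 3, at adjusted p from 0.0690 to 0.148. With lens reads removed, 6 of these markers were lower, against 1259 of all 12112 tested genes. Without Control 3 and OIR 2 the number was also 6, against 1943 genes. It was 0 in the fits without Control 1, without Control 2, without OIR 3 and with no filter, and 1 without OIR 1. Set against Isl1, Grm6 had a ratio of 1.11 ± 0.157 in OIR and 0.926 ± 0.0510 in Control, without overlap. The exact permutation p was 0.1 (two-sided, n = 3 each), and 0.214 adjusted over the 15 ratios.

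OFF cone bipolar cells, which use ionotropic receptors in place of mGluR6, also had lower markers: 4 of 10 tested were lower and 6 did not pass. Of all tested genes 7.22% were lower, and the median log2 fold change of these markers was -0.23. With lens reads removed, and likewise without Control 3 and OIR 2, 6 of the markers were lower, through Vsx1 and Syt2. Of all 12112 tested genes, 1259 and 1943 were lower in these fits. Tacr3, the gene of a tachykinin receptor, averaged 4.48 ± 0.719 RPKM in OIR and 9.55 ± 1.03 RPKM in Control, at a log2 fold change of -0.95 and an adjusted p of 0.000501. Grik1, a kainate receptor gene, averaged 16.2 ± 1.63 RPKM in OIR and 25.1 ± 2.92 RPKM in Control, at an adjusted p of 0.00368. Bhlhe22 and Prkar2b had log2 fold changes of -0.43 and -0.42, and their calls ended without Control 1, Control 2, OIR 1 or OIR 3, at adjusted p from 0.0709 to 0.0975. Nnat and Hcn4 went the other way, at 0.25 and 0.03, and did not pass (adjusted p = 0.0900 and 0.826). Every OIR value of Nnat lay above every Control value.

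On the photoreceptor side of the same synapse, 5 of 12 genes were higher and 7 did not pass, against 11.6% of all tested genes higher, with a median log2 fold change of 0.21. With lens reads removed, 5 were higher and 1, Rims2, was lower (log2 fold change -0.27, adjusted p = 0.0258). Without Control 3 and OIR 2, 6 were higher, Elfn1 among them, and Rims2 was lower. Of all 12112 tested genes, 1338 were higher and 1259 lower with lens reads removed. Without Control 3 and OIR 2, these numbers were 2094 and 1943. Cacna1f, the calcium channel gene of the photoreceptor terminal, averaged 62.6 ± 3.28 RPKM in OIR and 47.6 ± 1.28 RPKM in Control, at an adjusted p of 0.00375. Dag1 and Egflam, the genes of dystroglycan and its ligand pikachurin, which line up photoreceptor terminals and bipolar dendrites, averaged 23.1 ± 1.85 and 29.8 ± 0.958 RPKM in OIR, against 17.02 ± 1.01 and 22.8 ± 2.27 RPKM in Control. Their adjusted p were 0.00603 and 0.0102. Cacna2d4, a subunit gene of the same channel, and Lrit1 were higher by log2 fold changes of 0.26 and 0.26. The call of Cacna2d4 ended without Control 1, OIR 1 or OIR 3, at 0.0726 to 0.145, and that of Lrit1 without each library except OIR 2, at 0.0546 to 0.155. Elfn1, whose protein on rods binds mGluR6 across the synapse, averaged 29.8 ± 2.32 RPKM in OIR and 23.6 ± 3.73 RPKM in Control, at an adjusted p of 0.0565, and at 0.0263 without Control 3 and OIR 2.

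**Figure D4:**
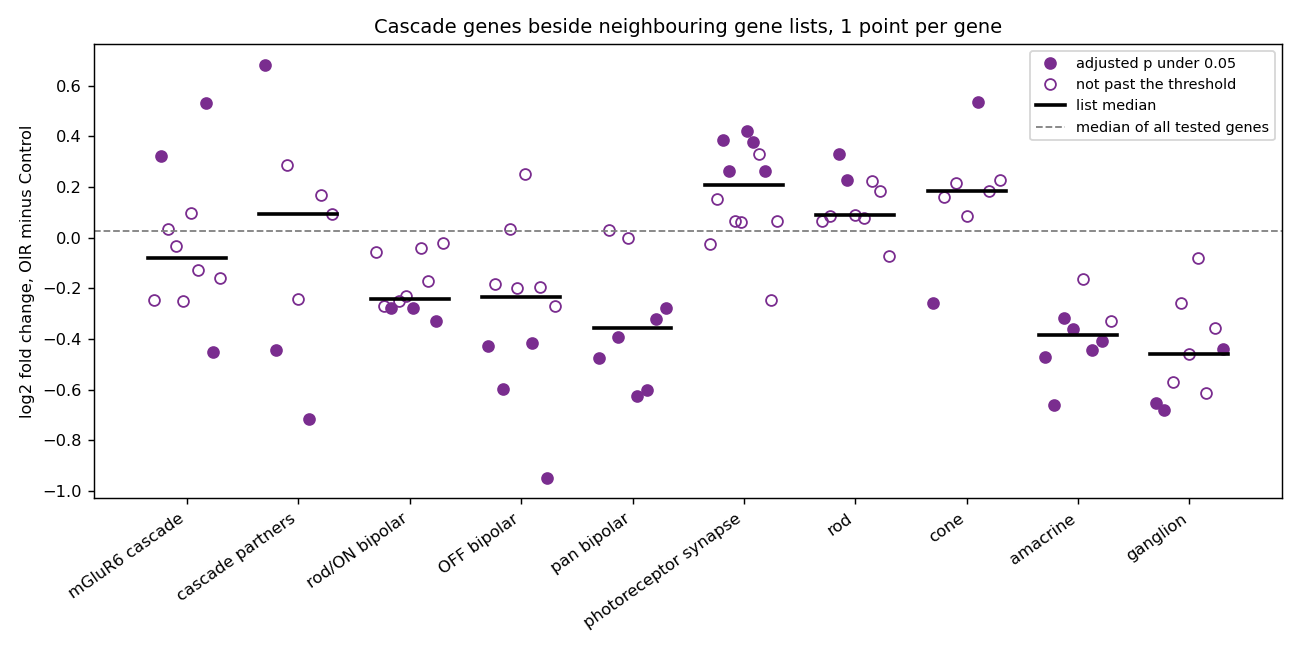
Log2 fold change, OIR minus Control (vertical axis), of each tested gene of the cascade and of 9 neighbouring gene lists, with filled points past an adjusted p of 0.05, open points not past it, a black line at each list's median and a dashed grey line at the median of all tested genes. The pan bipolar median lies at -0.36, that of the cascade at -0.08 and that of the photoreceptor synapse list at 0.21.

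For other cell types the 2 listed genes of smallest adjusted p are given. Among amacrine genes, Gad1, the gene of a GABA-making enzyme, and Tfap2a averaged 53.7 ± 10.3 and 6.83 ± 0.741 RPKM in OIR, against 84.6 ± 6.12 and 9.37 ± 0.620 RPKM in Control. The neurofilament genes Nefh and Nefl of ganglion cells averaged 34.9 ± 5.46 and 151.6 ± 36.6 RPKM in OIR, against 55.0 ± 3.59 and 239 ± 14.9 RPKM in Control. Of 7 cone genes, 1 was higher, 1 was lower and 5 did not pass, against 11.6% of all tested genes higher and 7.22% lower. Photoreceptor genes went both ways: the rod factor genes Nr2e3 and Nrl had log2 fold changes of 0.33 and 0.23, the cone opsin gene Opn1sw 0.54 and the cone arrestin gene Arr3 -0.26. The water channel gene Aqp4 and the transcription factor gene Sox9 of Müller glia were at -0.58 and 0.67. The endothelial genes Cdh5 and Pecam1 were at 1.27 and 0.98, and the microglial genes C1qa and Tyrobp at 1.72 and 1.42. All of these passed, at limma adjusted p up to 0.0462 (Arr3). With a single library left out, the call of Nefl ended in all but the fit without OIR 2 (adjusted p from 0.0551 to 0.0899) and that of Nrl in all but the fit without Control 3 (0.0575 to 0.176). The call of Arr3 ended without OIR 1, OIR 3, Control 1 or Control 2 (0.127 to 0.195), that of Nr2e3 without OIR 1 or Control 2 (0.0919 and 0.0588) and that of Tfap2a without OIR 1 or Control 1 (0.0573 and 0.0548).

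The genes whose pattern over the 6 libraries was most like the mean standardised level of Grm6, Trpm1, Gpr179 and Nyx were Syncrip, Gdap2, Zdhhc14, Fbxl17 and Pphln1, with Pearson r from 0.989 to 0.996 among 11910 genes compared. All libraries of a group share their treatment, and none of these 5 genes passed the test between the groups, at adjusted p from 0.471 to 0.796.

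Exons of 3 of the 10 genes overlap those of another gene in the files on the opposite strand, so that without known strand their reads in the shared stretch cannot be told apart. The gene beside Rgs11 is Arhgdig, at 7.94, 11.96 and 8.41 RPKM in OIR and 11.1, 9.15 and 11.1 RPKM in Control, with a log2 fold change of -0.15 and an adjusted p of 0.505. The gene beside Pcp2 is Pet100, at a log2 fold change of 0.02, and that beside Prkca is Apoh, at -0.27, with adjusted p of 0.879 and 0.312. Exons of Gnao1, Gnb5, Grm6 and Trpm1 also overlap gene models on the opposite strand that have no values here. The part of those gene models in the values of Gnao1, Gnb5, Grm6 and Trpm1 was not tested.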

How the data were processed

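RNA of whole retina was sequenced in 3 OIR and 3 Control libraries, grouped by their titles. Each deposited file gives 1 RPKM value per gene symbol, which the authors scaled to gene length and library total. The submitters' processing notes list TopHat2 2.0.12 and Bowtie2 2.0.6. How reads were counted, on which build and annotation, is not given in the sources used here. The library protocol in the labels describes another species, so strand is treated as unknown.

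Low values step by whole reads, which gave relative depth. Lengths of GENCODE M21 transcripts, matched by 81 genes, gave absolute depth. Of 17953 genes above 0, 99.978% then came out whole within 0.02 of a read, 35615501 to 38025623 reads per library. The cascade genes held 903 to 32701 reads per library.

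Since RPKM are not counts, limma 3.58.1 (R 4.3.3, trend and robust) was run on log2(RPKM + 1) for 12112 genes with at least 1 RPKM in at least 3 libraries, with group as the only term, and tested on simulated data. Fold changes on this scale understate those of low genes. Ratios within a library were tested with exact permutation tests (scipy 1.17.1). Alternatives were median-of-ratios scaling, removal of lens reads from the totals, 0.1 as pseudocount, no filter on low values or a minimum of 5 RPKM, the replicate number as a block, libraries left out, and limma-voom on recovered reads with the same median-of-ratios factors.

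Named genes are the 10 cascade genes, every reported gene past the threshold in the cascade partner, photoreceptor synapse and bipolar lists, the 2 of smallest adjusted p in the other lists, and the 5 of most alike pattern. Some genes of these lists enter the counts and are not reported here by name. Genes named beyond these were chosen after their values were seen. The cascade genes and the lists were chosen with earlier results of these data known.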

Additional observations from a re-analysis of the deposited data

How the results depend on the processing

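Rgs11 and Rgs7 kept their direction and their call in every alternative run, with log2 fold changes of 0.44 to 0.60 and -0.54 to -0.39 with single libraries left out, and 0.61 and -0.59 without both lens-rich libraries. The call of Gnb5 ended with no filter, at 0.32, where 17953 genes were tested, and its range with single libraries left out was 0.22 to 0.39. Trpm1 passed at -0.19 with median-of-ratios scaling, -0.19 with lens reads removed, -0.19 with limma-voom and -0.23 without both lens-rich libraries (-0.22 to -0.12 with single libraries left out). Gnao1 passed under the same settings, at -0.28, -0.27, -0.28 and -0.39 (-0.33 to -0.18). Nyx passed with limma-voom and without both lens-rich libraries, at -0.34 and -0.36 (-0.36 to -0.16), and Prkca without both, at -0.28 (-0.24 to -0.0519). Grm6 ran from -0.0952 to 0.0709 and Gpr179 from -0.0356 to 0.0939 with single libraries left out, with Gpr179 at -0.0866 without both lens-rich libraries. For these the cause was not tested, except that lens reads lower all other values in Control 3 by construction.

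Cascade genes lower in OIR numbered 3 with median-of-ratios scaling, 3 with lens reads removed, 5 without both lens-rich libraries and 4 with limma-voom, and 1 to 5 with single libraries left out. Those higher numbered 1 with no filter and 1 to 2 with single libraries left out. Over all 12112 tested genes, 875 were lower in the main fit, 1268 with median-of-ratios scaling and 1259 with lens reads removed. The number was 1943 without both lens-rich libraries and 1438 with limma-voom, and 529 of 17953 genes with no filter. With single libraries left out, 513 to 1754 were higher and 212 to 1293 lower. The partner list had 5 genes past the threshold without both lens-rich libraries and with limma-voom (3 to 5 with single libraries left out). The photoreceptor list had 3 with no filter (3 to 7) and 7 with limma-voom, and the OFF bipolar list 2 with no filter (2 to 5) and 6 with median-of-ratios scaling and with limma-voom. The ON bipolar list had 6 with median-of-ratios scaling, lens reads removed, limma-voom or without both lens-rich libraries (0 to 6), and 0 with no filter by limma, where 6 had an unadjusted p under 0.05. Of all tested genes, 21.5% passed with median-of-ratios scaling, 21.4% with lens reads removed and 23.4% with limma-voom. The share was 33.3% without both lens-rich libraries and 9.68% with no filter. The lens genes Lgsn and Hspb1 ran from -3.20 to 0.41 and from -1.98 to 0.40, both positive without Control 3, and Hspb1 was at 0.11 without both lens-rich libraries. The log2 ratio of Rgs11 to Rgs7 ran from 0.90 to 1.19.

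The labels state no pairing of the libraries by replicate number. Deviations from the group mean correlated at 0.222, -0.440 and -0.414 for same-numbered libraries, and from -0.424 to 0.493 for differently numbered ones. Within a group such deviations are not independent of each other, so these correlations cannot decide whether the numbers pair the libraries. With the number as a block, Gnao1 passed at -0.24, which made 2 cascade genes lower, and 1222 genes were higher and 809 lower. The calls of Lrit1, Nefl and Nrl ended under the block in the limma fit, at adjusted p of 0.0584, 0.0527 and 0.0803.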
